A study of Mus musculus with 8 samples.

Results

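Described here are 10 genes whose products modify, fold and trim procollagen, out of 54532 genes in the deposited table. They were taken by symbol: the prolyl hydroxylase genes P4ha1, P4ha2, P4ha3 and P4hb, the lysyl hydroxylase genes Plod1, Plod2 and Plod3, the collagen chaperone gene Serpinh1, and Bmp1 and Pcolce, which act in propeptide removal. RNA was sequenced from mouse heart fibroblasts that had been sorted by flow cytometry for PDGFRα 7 days after a coronary artery was occluded, with no time in culture. Of the 8 samples, 4 carried the genotype label FTbR2KO, meaning loss of the TGF-β receptor TbR2 in fibroblasts, and 4 the label TbR2fl/fl, controls with the floxed receptor gene. Tamoxifen was given to the mice of both groups. The sources used here give neither the Cre driver nor the age of the mice. The title numbers are kept, 1 to 4 for FTbR2KO and 5 to 8 for TbR2fl/fl. Whether 1 sample stands for 1 animal is not said in the labels. The tests therefore speak of the scatter among samples, some of which may be technical.

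Collagen chains are modified while they are still single strands in the endoplasmic reticulum. Prolyl 4-hydroxylase joins a catalytic alpha subunit, encoded by P4ha1, P4ha2 or P4ha3, to the disulphide isomerase P4HB, and the hydroxyproline it makes keeps the triple helix stable at body temperature. The lysyl hydroxylases encoded by the Plod genes prepare lysines for glycosylation and for crosslinking, PLOD2 being the enzyme for the telopeptide lysines of stable crosslinks. HSP47, the product of Serpinh1, binds the folded helix and accompanies it towards the Golgi. Outside the cell BMP1 cuts off the C-terminal propeptide so that fibrils can form, and PCPE-1, the product of Pcolce, speeds that cut. Activated fibroblasts of the healing infarct make large amounts of collagen and rely on these steps.

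Libraries held 16.1 to 22.9 M recovered reads (M for 1e6) in the FTbR2KO group and 21.2 to 28.7 M in the controls. Tgfbr2, the receptor gene named in the genotype, measured 58.2 ± 1.30 FPKM (fragment counts scaled by gene length and sequencing depth; mean ± SD, n = 4) in the libraries labelled FTbR2KO and 45.5 ± 3.86 in the controls, which goes against the label, although a gene-level value cannot show whether an exon was lost. Directions therefore refer to libraries as labelled. On the main axis of variation, with 33.0% of the variance, FTbR2KO 1 and TbR2fl/fl 5 stood apart (scores -24.4 and -20.9, against -0.108 to 19.04 in the others), so results are also given without both. Pdgfra, the gene of the sort marker, stood at 45.5 to 85.6 FPKM, and Ptprc of leukocytes (at most 0.0346), Pecam1 of endothelium (at most 1.17) and Myh6 of cardiomyocytes (at most 0.375) were low. Of the 8 endothelial genes, Tek was the exception at 15.1 to 26.8 FPKM. Mural markers were present, with 8 genes summing to 58.5 to 102 FPKM in the first group and 62.5 to 88.5 in the second, led by Notch3 (18.5 to 29.6) and Rgs5 (12.9 to 32.3), and 7 of 8 had a log2 fold change above 0. Epicardial markers were present too. Their 8 genes summed to 68.1 to 115 FPKM in the FTbR2KO libraries and 41.04 to 85.0 in the others, mostly from Aldh1a2 (74.1 ± 15.7 and 49.5 ± 16.7), and all 8 had a log2 fold change above 0. No mural or epicardial gene passed the threshold, and their part in the results was not tested.

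All 10 genes were expressed well above the filter of 1 FPKM in at least 4 libraries, and all were tested. FPKM is scaled by gene length, so levels can be set side by side. Serpinh1 was highest, at 707 to 1196 FPKM, above 99.8% of the 11667 tested genes. P4hb followed at 310.3 to 477 FPKM, then Pcolce at 186 to 314 and Bmp1 at 84.4 to 111. The order Serpinh1, P4hb, Pcolce, Bmp1 was the same in 8 of 8 libraries, although the ranges of P4hb and Pcolce overlap across libraries. Then came a group of 5 genes whose ranges overlap each neighbour's: Plod2 (42.8 to 62.2 FPKM), Plod3 (32.6 to 56.2), P4ha1 (30.1 to 60.5), P4ha3 (25.6 to 49.7) and Plod1 (26.0 to 40.9). Their order was not kept in every library. P4ha2 was lowest in all libraries, at 8.00 to 11.9 FPKM, which still lay above 68.8% of tested genes. Counts of reads were large for each gene, from 867 for P4ha2 in its lowest library to 70671 for Serpinh1 in its highest, so counting error is small beside the spread between libraries.

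**Figure D1:**
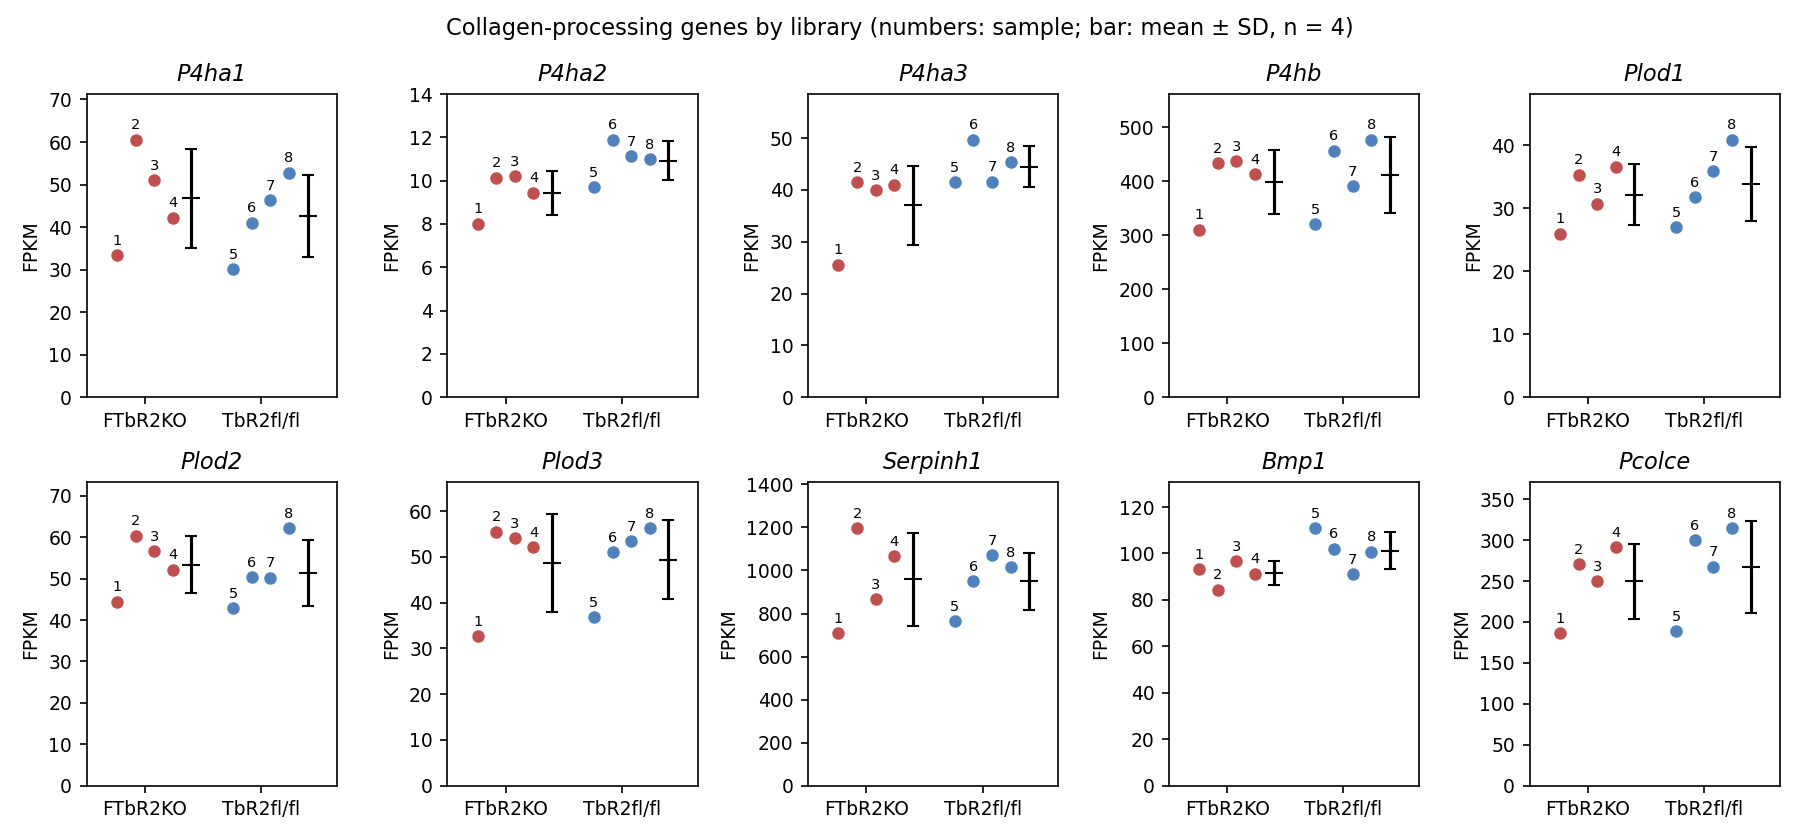
FPKM of each of the 10 genes on a linear axis from 0, 1 point per library with its sample number, and the mean ± SD of each group (n = 4). The groups overlap for every gene, and FTbR2KO 1 and TbR2fl/fl 5 are the lowest of their group for all genes but Bmp1.

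The table gives GRCm38 coordinates, and each counted length matched the merged exons of GENCODE release M21. P4ha1 lies on chromosome 10 (59323296 to 59373304, plus strand), P4ha2 on chromosome 11 (54100095 to 54131665, plus strand) and P4ha3 on chromosome 7 (100285520 to 100319699, plus strand). P4hb is also on chromosome 11 (120560298 to 120573253, minus strand). Plod1 is on chromosome 4 (147909753 to 147936767, minus strand), Plod2 on chromosome 9 (92542223 to 92608428, plus strand) and Plod3 on chromosome 5 (136987019 to 136996648, plus strand). Serpinh1 lies on chromosome 7 (99345376 to 99353239, minus strand), less than a megabase from P4ha3. Pcolce is on chromosome 5 (137605103 to 137613784, minus strand) and Bmp1 on chromosome 14 (70474558 to 70520234, minus strand). Exons of Plod3 share 11.9% of their length with Znhit1 on the opposite strand and with Mir702, those of Plod2 share 6.42% with Gm38391, and those of Pcolce 2.93% with Fbxo24 and Gm36266. The use of strand in counting is not stated, so these 3 values may hold some reads of the partners. Splice forms cannot be told apart, including the short BMP-1 and long tolloid forms of Bmp1 and the forms of Plod2 with and without its alternative exon.

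The sequences before the start sites of 4 genes are shown, because P4ha1 and P4ha3 encode the more abundant of the alternative alpha subunits, and because P4hb and Serpinh1 were the most abundant of the 10 genes. RefSeq promoter windows (build GRCm38.p6, 250 bases before to 50 after the start) were found for 8 of the 10 genes. Each line gives the 250 bases before the start, 5′ to 3′ on the gene's strand, with every ACGTG or GCGTG in capitals in either orientation (CACGT and CACGC on the other strand). These letters are the core to which hypoxia-inducible factors bind. The stretches lie at chr10:59323046-59323295 (plus strand), chr7:100285270-100285519 (plus), chr11:120573254-120573503 (minus) and chr7:99353240-99353489 (minus).
P4ha1: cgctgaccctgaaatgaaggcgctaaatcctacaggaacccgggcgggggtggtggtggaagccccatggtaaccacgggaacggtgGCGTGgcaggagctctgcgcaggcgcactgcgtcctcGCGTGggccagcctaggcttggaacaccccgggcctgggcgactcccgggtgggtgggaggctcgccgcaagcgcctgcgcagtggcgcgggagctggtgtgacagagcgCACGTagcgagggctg
P4ha3: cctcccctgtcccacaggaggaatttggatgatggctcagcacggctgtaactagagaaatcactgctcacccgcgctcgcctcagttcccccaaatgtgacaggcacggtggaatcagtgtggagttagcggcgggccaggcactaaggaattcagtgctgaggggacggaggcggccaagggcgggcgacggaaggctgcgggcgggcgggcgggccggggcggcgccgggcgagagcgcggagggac
P4hb: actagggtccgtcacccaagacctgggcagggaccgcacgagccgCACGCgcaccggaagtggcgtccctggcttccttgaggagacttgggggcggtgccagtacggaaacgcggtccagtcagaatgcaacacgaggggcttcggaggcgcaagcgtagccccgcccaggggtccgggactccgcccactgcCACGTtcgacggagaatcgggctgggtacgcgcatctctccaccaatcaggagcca
Serpinh1: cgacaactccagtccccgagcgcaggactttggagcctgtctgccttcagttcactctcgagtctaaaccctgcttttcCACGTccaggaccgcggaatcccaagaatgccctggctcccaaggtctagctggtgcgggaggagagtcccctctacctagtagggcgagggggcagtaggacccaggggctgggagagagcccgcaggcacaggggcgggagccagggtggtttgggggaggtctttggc
The P4ha1 stretch holds 3 such cores, P4hb 2, Serpinh1 1 and P4ha3 0. In the full windows, ACGTG on either strand was found for 5 of 8 genes (Plod3, Serpinh1, P4ha1, P4ha2 and P4hb) and in 19.6% of all 32851 windows. GCGTG was found for 6 of 8 (Plod1, Plod3, Pcolce, P4ha1, P4ha2 and P4hb) and in 32.4% of all windows. At least 1 of these cores was present for 7 of 8 genes and in 43.8% of windows. The windows of the 8 genes had a GC content of 53.3% to 70.3%, against a median of 52.7% over all windows. Both core words contain the pair CG. That pair occurred 5 times in the Pcolce window and 16 (Serpinh1) to 32 times (P4ha1) in the others, against a median of 7. The part of base composition in these counts was not tested. Of the Smad-related words searched on both strands, CAGACA was in the Serpinh1 window (1 of 8, against 21.04% of all) and GTCTAGAC in none of the 8 (0.213% of all). The heat shock word GAANNTTC was in the window of Plod1 (7.86% of all), TATAAA in those of Plod1 and P4ha1 (13.6%), and CCAAT with CCACG 9 bases further on, the endoplasmic reticulum stress element, in none (0.119%). A match is a description of the letters and says nothing of binding.

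The alpha subunit genes of prolyl 4-hydroxylase differed in level, and none of them passed the test between genotypes. P4ha1, the main alpha subunit gene of most tissues, measured 33.4, 60.5, 51.0 and 42.2 FPKM in FTbR2KO 1 to 4 and 30.1, 41.0, 46.4 and 52.8 in TbR2fl/fl 5 to 8. The groups overlapped almost completely, and the lowest library of each was the one that stood apart. On the log2 scale the difference, FTbR2KO minus TbR2fl/fl, was 0.13 with an SE of 0.21 and a 95% interval of -0.35 to 0.60. It was -0.004 without FTbR2KO 2 and -0.024 without TbR2fl/fl 5. P4ha3, an alpha subunit gene with a narrower tissue range, measured 25.6, 41.5, 39.9 and 41.0 FPKM in FTbR2KO 1 to 4 against 41.5, 49.7, 41.6 and 45.3 in the controls. Only FTbR2KO 2 lay within the control range, just above TbR2fl/fl 5. Its log2 fold change of -0.28 (SE 0.16, interval -0.63 to 0.07) was the largest in size of the 10. The unadjusted limma p was 0.104, the limma adjusted p 0.628 and the exact permutation p 0.0571. Without FTbR2KO 1 and TbR2fl/fl 5 the log2 fold change was -0.15 (SE 0.086).

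P4ha2, the alpha subunit gene known for its role in cartilage and bone, measured 8.00, 10.1, 10.2 and 9.44 FPKM in FTbR2KO 1 to 4 and 9.69, 11.9, 11.1 and 10.997 in the controls. The controls other than TbR2fl/fl 5 lay above all libraries labelled FTbR2KO. The log2 fold change was -0.19 (SE 0.094, interval -0.41 to 0.02), with the smallest unadjusted limma p of the 10 genes at 0.0703 and an adjusted p of 0.596. It lay below 0 in all 17 alternatives, at -0.24 to -0.04, with adjusted p from 0.204 to 0.954. P4hb, the shared beta subunit and disulphide isomerase, measured 310.3, 433, 437 and 413 FPKM in FTbR2KO 1 to 4 and 320.4, 456, 391 and 477 in the controls. The ranges nearly coincided (log2 fold change -0.04, SE 0.17).

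The lysyl hydroxylase genes were close to each other in level and had no separation by genotype. Plod2 measured 44.5, 60.4, 56.6 and 52.2 FPKM in FTbR2KO 1 to 4 and 42.8, 50.4, 50.3 and 62.2 in the controls, a log2 fold change of 0.06 (SE 0.13, interval -0.25 to 0.36). Plod1, which hydroxylates lysines of the helix, measured 26.0, 35.4, 30.7 and 36.6 FPKM against 27.0, 31.8, 35.9 and 40.9 (log2 fold change -0.07, SE 0.15). Plod3, whose product also adds sugars to hydroxylysine, measured 32.6, 55.5, 54.1 and 52.1 FPKM against 36.8, 51.1, 53.5 and 56.2 (log2 fold change -0.04, SE 0.19). For all 3 genes FTbR2KO 1 and TbR2fl/fl 5 were the 2 lowest libraries, and the remaining libraries of the groups were interleaved.

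The means of Serpinh1 nearly coincided. It measured 707, 1196, 865 and 1067 FPKM in FTbR2KO 1 to 4 and 764, 949.7, 1069.9 and 1016 in TbR2fl/fl 5 to 8. The highest and the lowest of the 8 libraries both carried the FTbR2KO label, so this group spread wider, at 959 ± 216 FPKM against 949.9 ± 133. The log2 fold change was -0.0036 (SE 0.19), and its interval ran from -0.43 to 0.42. It was 0.13 without FTbR2KO 1 and -0.12 without FTbR2KO 2.

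Bmp1, the procollagen C-proteinase gene, measured 93.3, 84.4, 96.7 and 91.4 FPKM in FTbR2KO 1 to 4 and 111, 102, 91.1 and 101 in the controls. Of the controls, TbR2fl/fl 7 alone lay within the range of the libraries labelled FTbR2KO. The log2 fold change was -0.14 (SE 0.095, interval -0.36 to 0.07; limma adjusted p = 0.682). Bmp1 varied least among libraries, with coefficients of variation of 5.71% and 7.98%. Pcolce, its enhancer gene, measured 186, 271, 249.96 and 291 FPKM in FTbR2KO 1 to 4 and 189, 299.7, 267 and 314 in the controls, and only TbR2fl/fl 6 and 8 lay above all libraries labelled FTbR2KO (log2 fold change -0.09, SE 0.20). Pcolce transcripts exceeded those of Bmp1 1.70 to 3.21 times in the 8 libraries, with means of 2.74 ± 0.578 and 2.67 ± 0.654 in the 2 groups.

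None of the 10 genes passed the threshold of a limma adjusted p of 0.05, where 0.0171% of all tested genes did (2 of 11667). None had an unadjusted p under 0.05, against 8.61% of tested genes (1004). For none of the 10 did the groups separate completely, against 4.41% of tested genes (515). Adjusted p-values ran from 0.596 for P4ha2 to 0.997 for Serpinh1. Limma voom on the recovered reads also called 0 of 10. P4ha2 had an unadjusted p under 0.05 in 6 of the 17 alternatives (median-of-ratios, quantile normalization, array weights, voom, without TbR2fl/fl 5, and without FTbR2KO 1 and TbR2fl/fl 5), and no other member had one in any. Log2 fold changes lay above 0 for P4ha1 and Plod2 and below 0 for the other 8 genes, with a median of -0.055 beside -0.0045 over all tested genes. Conversion to TPM, which gives all libraries the same sum per length, moved the median of all tested genes from -0.0045 to 0.15. Of the 10 genes 8 then lay above 0, but 7 of 10 lay below the median of all genes on either scale. TPM shifts all genes of a library almost alike, so positions relative to that median could hardly change, here and for the lists below. After quantile normalization 5 lay above 0 and 5 below. This split rested on single libraries: without FTbR2KO 1, 7 of 10 genes lay above 0, without TbR2fl/fl 5 none did, and without both 4 did. Since these are bulk samples of sorted cells, fewer cells of a kind and less RNA per cell cannot be told apart.

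**Figure D2:**
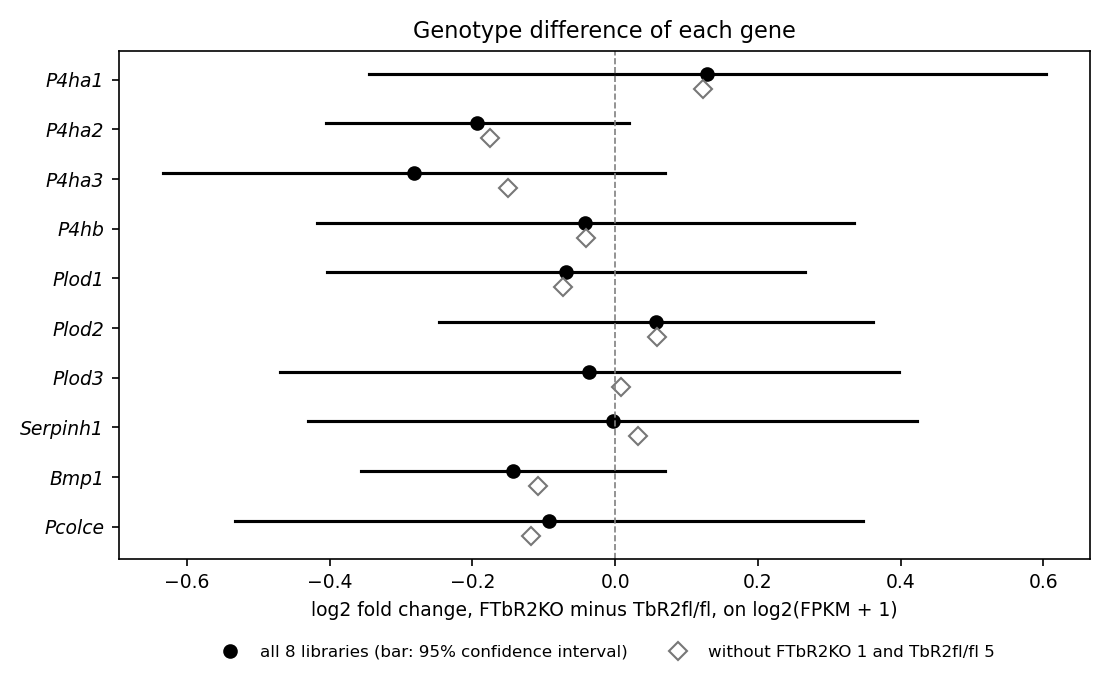
Log2 fold change of each gene, libraries labelled FTbR2KO minus TbR2fl/fl, on the log2(FPKM + 1) scale, with limma's 95% confidence interval (filled points and bars) and the value without FTbR2KO 1 and TbR2fl/fl 5 (open diamonds). All 10 intervals include 0.

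The mix of alpha subunit transcripts was then compared as shares of their summed FPKM, with no test, since no p is given for a score built from these genes. P4ha1 made up 49.8%, 54.0%, 50.4% and 45.6% in FTbR2KO 1 to 4 and 37.04%, 39.97%, 46.8% and 48.4% in the controls. Means were 49.9% ± 3.44 and 43.0% ± 5.41 (SD, n = 4), and FTbR2KO 4 lay below TbR2fl/fl 7 and 8. P4ha3 made up 38.2%, 37.01%, 39.5% and 44.2% against 51.04%, 48.4%, 42.0% and 41.6%. The order of the most abundant alpha subunit gene thus differed between libraries: P4ha1 exceeded P4ha3 in 4 of 4 libraries labelled FTbR2KO (1.03 to 1.46 times) and in TbR2fl/fl 7 and 8 (1.12 and 1.16 times), and was below it in TbR2fl/fl 5 and 6 (0.726 and 0.825 times). The summed level of the alpha subunit genes overlapped, at 67.0 to 112 against 81.2 to 109 FPKM. Without FTbR2KO 1 and TbR2fl/fl 5 the mean P4ha1 share differed by 4.94 percentage points, against 6.90 with all libraries.

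Within the lysyl hydroxylase genes the shares were more even. Plod2 made up 40.02% ± 2.49 and 38.2% ± 1.77 of the summed Plod FPKM, Plod3 35.9% ± 2.90 and 36.6% ± 1.98, and Plod1 24.1% ± 1.91 and 25.1% ± 0.886, in that order of groups. P4hb exceeded the summed alpha subunit genes 3.86 to 4.63 times in the first group and 3.94 to 4.45 times in the second. The groups overlapped in each of these shares and in the P4hb ratio.

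The levels were also set against their main substrate. Type I collagen, as Col1a1 plus Col1a2, summed to 4833, 5547, 5286 and 6281 FPKM in FTbR2KO 1 to 4 and 7003, 7335, 6516 and 6755 in the controls. All 4 libraries labelled FTbR2KO thus lay below all controls. Among single tested genes, 4.41% (515 of 11667) separated completely in either direction. Neither chain passed the threshold (log2 fold changes of -0.35 for Col1a1 and -0.30 for Col1a2, limma adjusted p of 0.571 and 0.581), and after quantile normalization Col1a1 was at 0.039. Set against this sum, Serpinh1 came to 14.6%, 21.6%, 16.4% and 16.98% in FTbR2KO 1 to 4 and 10.9%, 12.9%, 16.4% and 15.05% in the controls. Means were 17.4% ± 2.96 and 13.8% ± 2.41. P4hb came to 7.27% ± 0.909 and 5.96% ± 1.03, and the summed P4ha and Plod genes to 4.14% ± 0.616 and 3.38% ± 0.561. All of these ratios overlapped between groups. The differences were 3.56 percentage points for Serpinh1, 1.30 for P4hb and 0.760 for the summed hydroxylases. Without FTbR2KO 1 and TbR2fl/fl 5 they were 3.5, 1.12 and 0.735. After quantile normalization they shrank to 0.896, 0.166 and 0.0107. That method gives each rank the same value in every library, so it narrows differences of the highest genes, such as Col1a1, by construction. For Pcolce and Bmp1 the difference changed sign under that normalization (0.639 to -0.106 and 0.218 to -0.0576 percentage points). Without FTbR2KO 1 and TbR2fl/fl 5 it was 0.467 for Pcolce and 0.175 for Bmp1.

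**Figure D3:**
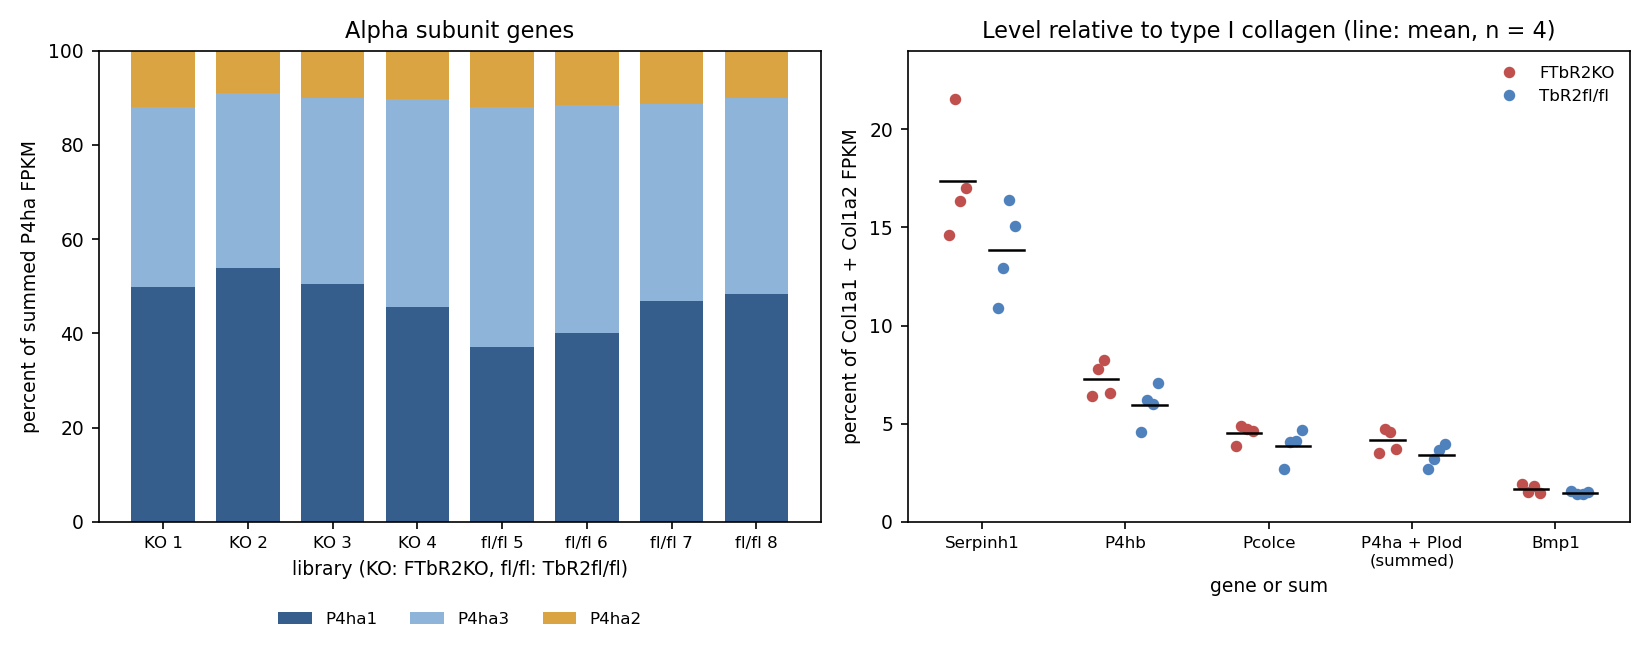
Left, each alpha subunit gene as percent of summed P4ha FPKM, 1 bar per library. Right, FPKM of Serpinh1, P4hb, Pcolce, the summed P4ha and Plod genes and Bmp1 as percent of Col1a1 plus Col1a2, 1 point per library with group means (n = 4). P4ha1 holds 45.6% to 54.0% in FTbR2KO 1 to 4, 37.04% to 48.4% in TbR2fl/fl 5 to 8, and the groups overlap in each ratio on the right.

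FTbR2KO 1 was the lowest of its group for 9 of the 10 genes, and TbR2fl/fl 5 the lowest of its group for the same 9. For 7 genes these were the 2 lowest of all 8 libraries, which held for 18.6% of all tested genes. The share of all tested genes lowest of each group in these libraries was not counted. Both libraries were singled out from these same data. In FTbR2KO 1 the level was 60.6% (Plod3) to 80.7% (P4ha2) of the mean of the other libraries of that label, and in TbR2fl/fl 5 64.2% (Pcolce) to 91.1% (P4ha3) of the mean of the other controls. P4ha3 was far below the rest of its group in FTbR2KO 1 alone, at 62.7%. In TbR2fl/fl 5 it was the lowest control value (41.47 FPKM) but close to that of TbR2fl/fl 7 (41.57). Bmp1 was the exception, at 103% and 113%, and TbR2fl/fl 5 held its highest value. FTbR2KO 1 was the shallowest library with 16.1 M reads, and TbR2fl/fl 5 held 27.7 M. These libraries also carry the 2 lowest serial numbers in the sample titles, whose meaning the labels do not state. The part of either in the low values was not tested.

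The same libraries were low for some related gene lists and not for others. General folding genes of the endoplasmic reticulum had a mean log2 level of 5.16 in FTbR2KO 1 (5.38 to 6.01 in the others of that label) and 5.02 in TbR2fl/fl 5 (5.49 to 5.61 in the other controls). The other procollagen-modifying genes stood at 5.10 (5.37 to 5.44) and 5.19 (5.47 to 5.51). The export, hypoxia and cofactor lists were also lowest of each group there, at 3.89, 3.41 and 3.06 in FTbR2KO 1 and 3.83, 3.37 and 3.05 in TbR2fl/fl 5. The propeptide proteinase list, which also holds other genes such as Sfrp2, Htra1 and Pcolce2, was not lowest there. For this list FTbR2KO 1 was highest of its group at 3.52 (3.35 to 3.43) and TbR2fl/fl 5 lay within its group at 3.42 (3.36 to 3.44). Fibrillar collagen chains did not share this in the controls, at 6.67 in TbR2fl/fl 5 against 6.61 to 6.74, although FTbR2KO 1 was lowest of its group at 6.25 (6.41 to 6.56). By the mean log2 level of their genes, epicardial markers were highest of each group in these libraries, at 2.96 (1.33 to 2.73) and 2.53 (0.80 to 2.17), while by summed FPKM they were not (97.1 in FTbR2KO 1 against up to 115, and 57.4 in TbR2fl/fl 5 against up to 85.0), and Aldh1a2 was lowest of each group there (57.9 and 31.9 FPKM). Pdgfra, the gene of the sort marker, was highest of each group in these libraries (85.6 and 71.1 FPKM). The mean log2 level of the fibroblast list was highest of its group in FTbR2KO 1 at 9.17 (8.94 to 9.13). In TbR2fl/fl 5 it lay within its group at 9.07 (8.88 to 9.44). The part of these markers in the low values of the 9 genes was not tested.

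**Figure D4:**
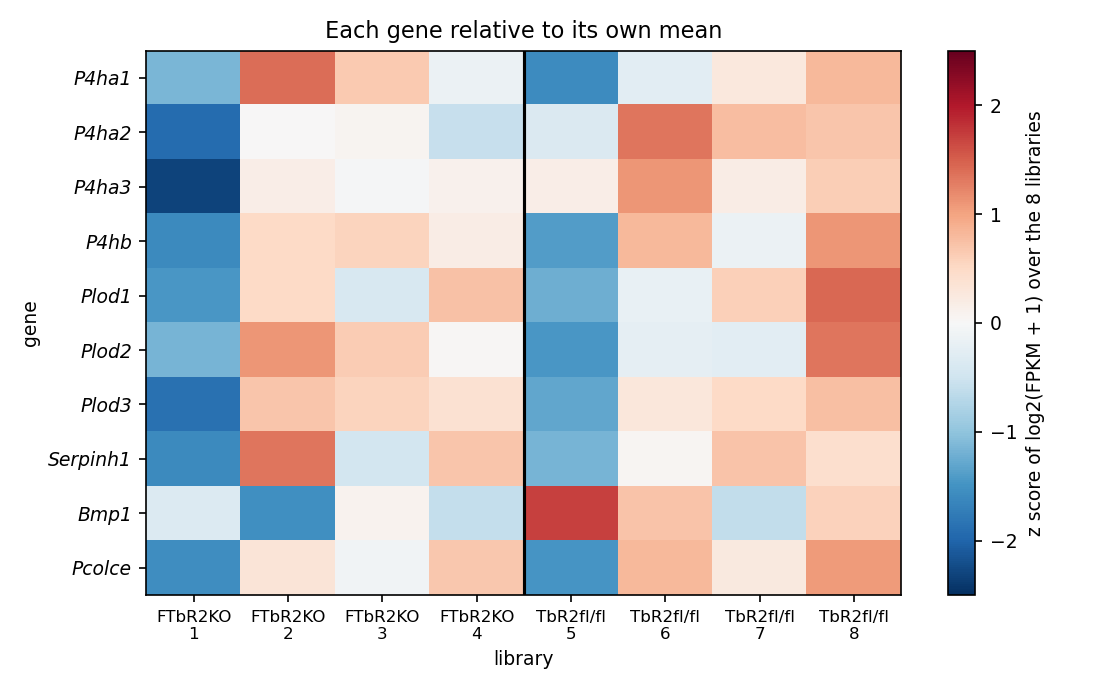
Level of each gene in each library as a z score of log2(FPKM + 1) over the 8 libraries, blue for below and red for above the gene's own mean. FTbR2KO 1 is blue for all 10 genes, TbR2fl/fl 5 for 8 of them, and Bmp1 is highest in TbR2fl/fl 5.

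Likeness among the genes was described by Pearson's r of log2(FPKM + 1) over libraries, which share their scaling. Over all 8 libraries the 36 pairs without Bmp1 had a median r of 0.77 (0.40 to 0.95), and 7 of the 9 pairs with Bmp1 lay below 0. Without FTbR2KO 1 and TbR2fl/fl 5 the median of the 36 pairs was 0.22 (-0.38 to 0.91), so most of this likeness rested on these libraries. The pairs that stayed above 0.70 over the remaining 6 libraries were P4ha1 with Plod2 (0.86) and Plod3 (0.91), Plod2 with Plod3 (0.90), P4ha2 with P4ha3 (0.80), and P4ha3 with Pcolce (0.73). Serpinh1 and Bmp1 ran opposite ways with and without these libraries (-0.58 over 8 and -0.77 over 6). The genes outside the set that followed its mean z score most closely over 8 libraries were Ttc9 (r = 0.99), Polr3k, Rab2a, Sh3bgrl3 and Tmsb4x (0.98 each), with 0.89 to 0.96 over 6 libraries. Of 10703 genes compared, 3.28% reached an r of at least 0.9.

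The neighbouring steps of the pathway were read from lists, with counts in place of list tests, and no listed gene passed the threshold in either direction. Among 16 other genes that modify or fold procollagen, each of which was tested, log2 fold changes were above 0 for 3 and below for 13. Their median was -0.10, beside -0.0045 for all tested genes, of which 5694 lay above 0 and 5973 below. On the TPM scale, with its shift of all genes, 12 of the 16 lay above 0, and 13 of 16 lay below the all-gene median on both scales. After quantile normalization 5 lay above 0 and 11 below. Those with the smallest p were P3h3, a prolyl 3-hydroxylase family gene (79.4 ± 9.57 against 89.7 ± 4.35 FPKM), Ppib, which encodes the prolyl isomerase cyclophilin B (48.0 ± 5.49 against 53.3 ± 5.97), P3h4 (44.7 ± 8.04 against 52.2 ± 10.6) and P3h2 (6.40 ± 2.03 against 5.25 ± 0.949). Genes of procollagen export from the endoplasmic reticulum gave 11 above 0 and 5 below of 16 tested (median 0.049, and 0.004 without TbR2fl/fl 5). After TPM conversion all 16 lay above 0, with 11 still above the all-gene median. Among them, Mia3, which encodes the cargo receptor TANGO1, measured 27.8 ± 2.41 against 26.1 ± 2.65 FPKM and Mia2, its partner, 4.80 ± 0.712 against 4.36 ± 0.358. The site-2 protease gene Mbtps2 measured 2.14 ± 0.226 against 1.88 ± 0.0254 and the coat GTPase gene Sar1b 20.7 ± 2.36 against 23.1 ± 3.63.

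Of 11 further genes listed with propeptide removal, not all of them proteinase genes, 7 could be tested, 3 above 0 and 4 below (median -0.018, and 0.015 without FTbR2KO 1 and TbR2fl/fl 5). After TPM conversion 6 lay above 0 and 3 above the all-gene median. Adamts2, the main N-proteinase gene, was at 195 ± 6.65 against 195 ± 6.41 FPKM, above the level of Bmp1 in both groups. The tolloid-like genes Tll1 and Tll2 stayed low (0.208 ± 0.121 against 0.160 ± 0.0639 and 0.920 ± 0.381 against 0.594 ± 0.225 FPKM), and Mep1a and Mep1b were listed at 0 in all libraries. The proprotein convertase gene Furin measured 20.7 ± 2.19 against 23.0 ± 1.89 FPKM, the serine protease gene Htra1 56.2 ± 17.5 against 44.0 ± 9.39, Sfrp2, whose product binds BMP1, 455 ± 128 against 526 ± 96.1, and the N-proteinase gene Adamts3 2.91 ± 0.198 against 2.64 ± 0.592.

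All 10 tested fibrillar collagen genes lay below 0 (median -0.23), and 3 of them lay above 0 after quantile normalization (Col3a1 at 0.045) and 3 on the TPM scale, where all 10 lay below the all-gene median. Quantile normalization narrows differences of the highest genes, such as Col1a1 and Col3a1, by construction. Without FTbR2KO 1 and TbR2fl/fl 5 all 10 stayed below 0, with a median of -0.14. Next to the type I chains these were Col5a1 (567 ± 93.4 against 676 ± 53.6 FPKM), Col2a1 (1.85 ± 0.702 against 2.73 ± 1.15) and Col3a1 (3607 ± 349 against 4156 ± 395). General folding genes lay the other way, 15 of 17 above 0 with a median of 0.15, which was 0.049 without FTbR2KO 2, 0.079 without TbR2fl/fl 5 and 0.305 without FTbR2KO 1. Of these chaperone genes Dnajc3 measured 43.8 ± 8.35 against 35.6 ± 4.20 FPKM, Hsp90b1 173 ± 50.4 against 135 ± 33.3, Canx 75.1 ± 20.4 against 62.0 ± 10.9 and Hyou1 21.7 ± 10.3 against 15.3 ± 3.23.

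**Figure D5:**
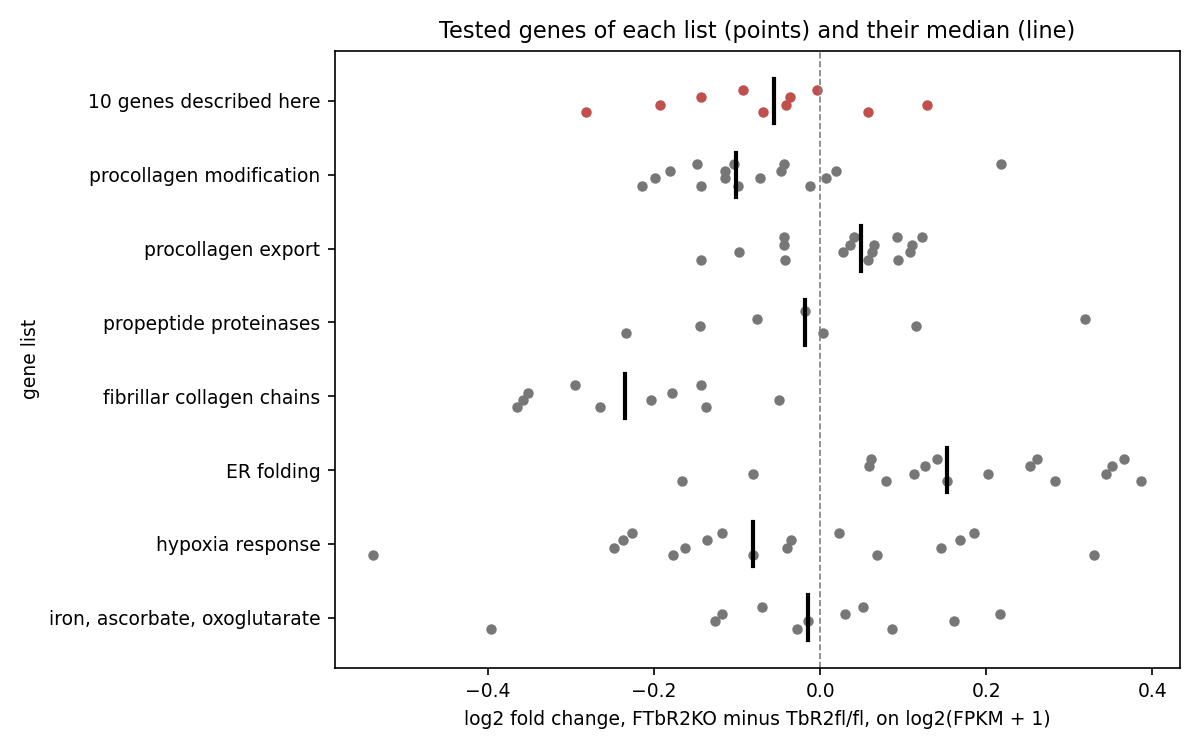
Log2 fold change of each tested gene, libraries labelled FTbR2KO minus TbR2fl/fl, by list, with the list's median as a line. The 10 genes have a median of -0.055, fibrillar collagen chains -0.23 and general folding genes of the endoplasmic reticulum (ER) 0.15, and no point passed the adjusted threshold.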

How the data were processed

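Gene-level FPKM of 8 libraries of PDGFRα-sorted mouse heart fibroblasts, 4 FTbR2KO and 4 TbR2fl/fl, were used as the authors deposited them, with names, GRCm38 coordinates and lengths per the file headers. Tools listed in the submitters' processing notes, with no role or order, are CASAVA, Cufflinks 2.1.1, HTSeq 0.6.1 and TopHat2 2.0, and the builds are mm10 and GRCm38.p6. Poly(A) RNA was extracted with Trizol and made into libraries with a NEBNext Ultra kit, per the labels' protocols. FPKM times gene length was a whole multiple of 1 step per library (100% of values above 0 within 0.01 of a whole number), which gave the reads behind each value.

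Genes that reached 1 FPKM in 4 or more of the 8 samples (11667) were compared on log2(FPKM + 1), which understates changes of low genes, with limma 3.58.1 in R 4.3.3. The variance prior followed a trend, no covariate was used, and p-values were two-sided with Benjamini-Hochberg adjustment over all tested genes at 0.05. Exact two-sided permutation tests of 4 against 4 samples cannot go below 0.0286. The fit was also run on simulated reads, drawn for each gene on its own without shifts shared by the genes of a library. The outcome of that run is not used here. Members and lists were chosen with earlier results of these data known. Named genes are the 10 members, Tgfbr2, Col1a1, Col1a2, Col3a1, up to 4 genes of smallest p per list, the 5 most alike in pattern, and Pdgfra, Ptprc, Pecam1 and Myh6. Adamts2, Tll1, Tll2, Mep1a, Mep1b, Aldh1a2, Tek, Notch3, Rgs5, Cd68, Lyz2 and Actc1 were named after their values were seen. Marker lists covered 10 cell types, the macrophage, neutrophil, lymphocyte, endothelial, mural, cardiomyocyte, Schwann and adipocyte lists summing to at most 11.4, 1.28, 0.442, 28.7, 102, 5.61, 3.99 and 1.17 FPKM in any library, against at least 10657 for fibroblasts. Alternatives were a pseudocount of 0.1, no filter, a filter at 5 FPKM, median-of-ratios, quantile and TPM scaling, array weights, voom on recovered reads, each library left out, and FTbR2KO 1 and TbR2fl/fl 5 left out together. Protein sequences were not used here.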

Additional observations from a re-analysis of the deposited data

Results flagged for a closer look

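Of 134 groups of 4 libraries looked at, 8 held a library whose gap to the next exceeded Dixon's 95% critical value, where chance flags about 1 in 20 groups, and genes that vary together are flagged together. Within the libraries labelled FTbR2KO, FTbR2KO 1 was far below the others for P4ha3 (25.6 FPKM), Plod3 (32.6 FPKM) and P3h4 (32.8 FPKM), and FTbR2KO 2 was above them for Ptprc (0.0346 FPKM, 11 reads). Among the controls, TbR2fl/fl 5 was far below the others for Mia2 (3.83 FPKM), Dnajc3 (29.3 FPKM), Hyou1 (10.4 FPKM) and the ratio of Pcolce to Bmp1 (1.70). All of these but Ptprc came from FTbR2KO 1 or TbR2fl/fl 5.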

How the results depend on the processing

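No member passed the threshold in any of the 17 alternatives, and P4ha2 and P4ha3 lay below 0 in all of them. Of 776 log2 fold changes of 46 named genes, 730 kept their direction and their side of the threshold and 46 changed sign, none of a gene past the threshold. The count of all genes called was 2 with all libraries, 1 with the stricter filter, 1 to 6 with 1 library left out (6 without FTbR2KO 4) and 0 without FTbR2KO 1 and TbR2fl/fl 5. Changed signs after quantile normalization were P4hb 0.028, Plod3 0.004, Serpinh1 0.070, Col1a1 0.039, Col3a1 0.045 and Rab2a 0.026. After conversion to TPM, which moved the median of all genes to 0.15, they were P4hb 0.126, Plod1 0.096, Plod3 0.130, Serpinh1 0.164, Pcolce 0.074, Bmp1 0.023, Ppib 0.016, Sar1b 0.018, Furin 0.016, Slc39a13 0.042, Polr3k 0.070, Rab2a 0.126, Sh3bgrl3 0.050 and Tmsb4x 0.103. Serpinh1 was at 0.019 with array weights, and Serpinh1 and Plod3 at 0.032 and 0.008 without FTbR2KO 1 and TbR2fl/fl 5. With 1 library left out the ranges were -0.024 to 0.276 for P4ha1, -0.155 to 0.073 for P4hb, -0.252 to 0.041 for Pcolce, -0.169 to 0.027 for Plod1, -0.025 to 0.151 for Plod2, -0.168 to 0.140 for Plod3, -0.119 to 0.133 for Serpinh1, -0.097 to 0.015 for Rab2a, -0.246 to 0.021 for Sh3bgrl3, -0.182 to 0.057 for Tmsb4x and -0.444 to 0.036 for Ttc9. Col1a1 stayed at -0.419 to -0.297 and Col3a1 at -0.269 to -0.154 with 1 library left out. By construction TPM shifts all genes, and quantile normalization narrows differences of the highest genes, such as Col1a1 and Col3a1. The cause of the changes was not tested beyond this. No paired analysis was possible because the groups share no replicate number and no label says that the serial numbers in the titles pair samples. With 4 libraries a group, the intervals given show which changes are not excluded.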

Other observations

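Supply of cofactors and the response to low oxygen, both tied to the hydroxylases by textbook knowledge, were read from the same fit. The hydroxylases use iron, ascorbate and 2-oxoglutarate. A list of 13 genes for the transport of metals and ascorbate and for the making and use of 2-oxoglutarate had 11 tested, 5 above 0 and 6 below (median log2 fold change -0.014, and 0.013 without TbR2fl/fl 8), and none passed. On the TPM scale 10 lay above 0 and 5 above the all-gene median. The zinc transporter gene Slc39a7 measured 2.85 ± 0.894 against 4.01 ± 0.696 FPKM (mean ± SD, n = 4, libraries labelled FTbR2KO against controls), the ascorbate transporter gene Slc23a2 5.53 ± 0.865 against 4.61 ± 0.653, the oxoglutarate dehydrogenase gene Ogdh 28.8 ± 2.34 against 25.7 ± 2.00, and Slc39a13, a zinc transporter gene tied to collagen disease, 16.9 ± 1.42 against 18.5 ± 2.28.

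P4ha1, P4ha2, Plod1 and Plod2 are known targets of hypoxia-inducible factors. Of 19 other hypoxia-response genes 17 were tested, 6 above 0 and 11 below (median -0.081, and 0.029 without TbR2fl/fl 8), and none passed. On the TPM scale 11 lay above 0 and 6 above the all-gene median. Ddit4, an inhibitor of mTOR signalling, had the smallest p of the list at 38.2 ± 8.09 against 55.6 ± 8.42 FPKM (limma adjusted p = 0.571). Vegfa, the angiogenic factor gene, measured 23.3 ± 4.75 against 18.4 ± 4.49 FPKM, Pfkfb3, a regulator of glycolysis, 3.85 ± 0.465 against 3.32 ± 0.351, and the mitophagy receptor gene Bnip3 6.88 ± 0.893 against 8.37 ± 2.33. Members of this list lay on both sides of 0.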
